A study of Mus musculus with 2 samples.

Results

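The cells described here are progenitors of the mouse bone marrow that carried transcripts of Gzmb (granzyme B, a serine protease of cytotoxic granules), in most cells together with that of Kit (the stem cell factor receptor), and that lay below the Mcpt8 level of basophils. They were chosen by measured values. In the library of E-cadherin+cKIT+ cells, a cell was kept when it held at least 2000 unique molecular identifiers (UMIs, each standing for 1 captured transcript), at least 3 Gzmb UMIs making at least 0.03% of its UMIs, less than 0.5% Mcpt8 (mast cell protease 8, a basophil granule protease), and fewer than 3 UMIs each of Car1 (carbonic anhydrase 1, erythroid), Prg2 (eosinophil major basic protein), Cd79a (B cell receptor chain) and C1qa (macrophage complement). This left 285 cells of 6220 with enough UMIs, in a library of 6632 cells and a series of 10377, and they are called Gzmb cells below. Levels of the 6 genes of the rule are therefore not results.

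The study asked how bone marrow cells that carry E-cadherin relate to each other with and without cKIT, the protein that Kit encodes, on their surface. E-cadherin+ bone marrow cells of FVB mice were sorted into a cKIT+ and a cKIT- fraction, and each sort gave 1 droplet-based 3′ RNA library. The study's text gives the mice as wild-type in one place and as VaviCre;mTmG in others, a reporter line in which Vav-driven Cre marks blood cells, whereas the labels name the FVB strain alone. Age is not given in the sources used here, and cells were not traced to single animals. With 1 library per sort no difference between sorts or sets of cells could be tested, so values are given with exact 95% intervals that cover counting error only.

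Of the 423 cKIT+ cells with at least 3 Gzmb UMIs, 388 also reached 0.03%. Among those, the Mcpt8 limit left out 55 cells, the Car1 limit 44, the C1qa limit 3 and the Prg2 limit 2, and the Cd79a limit left out 0. In the cKIT- library 29 cells held at least 3 Gzmb UMIs and 15 of them reached 0.03%, but all 15 lay above the Mcpt8 limit, so that 0 of 3538 cells met the rule there, which allows a share of up to 0.0848%. The 2 libraries shared 10 cell barcodes, of which 0 belonged to Gzmb cells. The Gzmb cells were shallower than the rest of their library, with a median of 8312 UMIs (lowest 3035, highest 35444) and 2756 genes per cell, against 14043 UMIs and 3481 genes in the 5935 other cKIT+ cells. Summed over cells, they held 2677897 UMIs and the other cells 92356169, and levels below are a gene's UMIs summed over a set of cells, scaled to 1000000 UMIs in that set (CPM).

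Mast cells and basophils are granulocytes that carry the high-affinity receptor for IgE and release histamine and proteases. Mast cell progenitors leave the bone marrow while still immature, home to tissues through integrins built with the chains Itga4 and Itgb7, and mature there under stem cell factor, the ligand of Kit. MITF and GATA2 are transcription factors needed for mast cell development, C/EBPα is needed for that of basophils, and the genes of mast cell chymases lie in the same protease locus as that of granzyme B.

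A few of the cells stood apart and are given here before the results. Of the 285 cells, 8 held many transcripts of another lineage. In 7 of them S100a8, a calcium-binding protein of neutrophils, made 2.71% to 11.5% of the UMIs, and 1 of those also held 325 UMIs of Elane (neutrophil elastase). The other one held 308 UMIs of Cd74, the invariant chain of MHC class II. Their median depth was 17827 UMIs, and several results that they turned or moved by over 1.5 times are given with and without them. They were left out of the Gzmb cells alone, and other sets kept such cells, so a lower level of S100a8, Elane and other neutrophil genes without them follows from the choice and is not a result. A doublet caller (Scrublet) marked 347 of the 6632 cells, and 16 of the 285 Gzmb cells, 5 of these 8 among them, were within the 352 highest doublet scores. Whether they are doublets was not tested.

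Of 5 genes beside Gzmb and Cma1 that gave the cells their working name as mast progenitors, all but Hes1 were present in most of them. Kit, on chromosome 5 at 75574916 to 75656722 (plus strand, GRCm38), was seen in 217 of the 285 cells (76.1%), with 0 to 7 UMIs per cell and a median of 1. Itga4 (integrin α4) ranged from 0 to 29 UMIs with a median of 5, and Scin (scinderin, which severs actin filaments) from 0 to 35 with a median of 10. Id2, an inhibitor of basic helix-loop-helix factors, had a median of 4 UMIs and a highest value of 18. Hes1, a repressor induced by Notch, was seen in 133 cells, with at most 6 UMIs. All 5 were detected together in 84 Gzmb cells (29.5%), 4 of the 5 in 136 (47.7%) and 3 in 47 (16.5%). All 5 were found in 6 (0.954%) of the 629 Prss34-low basophil progenitors of the same library. They were found in 0 of its 641 Elane-high cells, which allows a share of up to 0.468%. The 5 genes were chosen with earlier results of these data known, so this contrast is a description and no support for the name. The basophil progenitors are cells with at least 0.5% Mcpt8 and under 0.5% Prss34 (a basophil serine protease). The Elane-high cells have at least 0.1% Elane, under 0.5% Mcpt8 and fewer than 3 Gzmb UMIs. Both sets also have fewer than 3 UMIs each of Car1, Prg2, Cd79a and C1qa. Car1+ cells, used below, have at least 3 Car1 UMIs, under 0.5% Mcpt8 and under 0.1% Hba-a1 (haemoglobin α). They have fewer than 3 UMIs each of Prg2, Cd79a and C1qa, and no Gzmb limit. Every cell of these sets held at least 2000 UMIs.

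Because detection depends on depth, each cell was also reduced at random to 2000 UMIs. Kit was then seen in 33.3% (27.9 to 39.1) of Gzmb cells, in 5.93% of other cKIT+ cells, and in 2.13% of the 423 S100a8-high cells (at least 3% S100a8), which serve as a population expected to hold little Kit (median depth 12949 UMIs). Before thinning Kit was seen in 76.1% of Gzmb cells and 31.5% of other cells. Scin was seen in 87.7% of Gzmb cells, 20.6% of other cells and 0.78% of Elane-high cells (median depth 24402), and before thinning in 98.6%, 52.7% and 6.86%. For Itga4 the thinned shares were 69.1%, 13.5% and 10.3%, and the unthinned ones 95.8%, 56.4% and 69.9%. Hes1 remained in 16.8% of Gzmb cells, 0.421% of other cells and 0% of Elane-high cells. The same transcripts met in single cells at this low depth, since Scin and Itga4 were found together in 178 Gzmb cells (62.5%), Kit and Scin in 84 (29.5%) and Kit and Itga4 in 74 (26.0%).

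The limits of the rule cut through a gradient. Cells that held exactly 2 Gzmb UMIs and met the other limits (33 cells) had 97.2 CPM of Kit, 725 of Scin, 204 of Itga4 and 40.8 of Hes1. Those just inside, with 3 to 4 Gzmb UMIs (24 cells), had 169 CPM of Kit, 849 of Scin, 381 of Itga4 and 54.4 of Hes1. The 17 cells with at least 50 Gzmb UMIs had 278, 1380, 872 and 103 CPM in the same order. Id2 went from 84.7 CPM outside to 201 just inside and 999 in the cells richest in Gzmb. The 12 cells with 3 or more Gzmb UMIs but a share under 0.03% had 48.8 CPM of Kit and 399 CPM of Elane.

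Against the other cells of the same sort, Gzmb cells held more transcript of Kit, of the integrin chains Itga4 and Itgb7 and of transcription factors such as Hes1, Id2 and Mitf. Most measured genes of cell division were lower. Of 11 measured basophil genes 6 were lower, in part through the rule, and 2 higher. Of 12 neutrophil lineage genes 7 were lower and 0 higher with all cells, and the granule genes Camp, Ngp and Ltf stayed within 2-fold. Without the 8 cells rich in another lineage all 12 were lower, which follows in part from the choice of those cells. Kit stood at 185 CPM (169 to 202) in Gzmb cells, 32.9 in other cKIT+ cells, 30.8 in the basophil progenitors, 66.4 in the 111 Car1+ cells and 53 in Elane-high cells. That is 5.63-fold (5.11 to 6.19) the level of the other cells, although every cell of the library had passed the same gate for the protein. Among 3279 genes with at least 50 CPM in either set, 278 (8.48%) were at least 2-fold higher in Gzmb cells and 227 (6.92%) at least 2-fold lower. Without the 8 cells rich in another lineage they were 301 (9.11%) and 252 (7.62%) of 3305. The shares with all cells are the background for every gene group below, and the median log2 ratio of all these genes was 0.06.

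**Figure D1:**
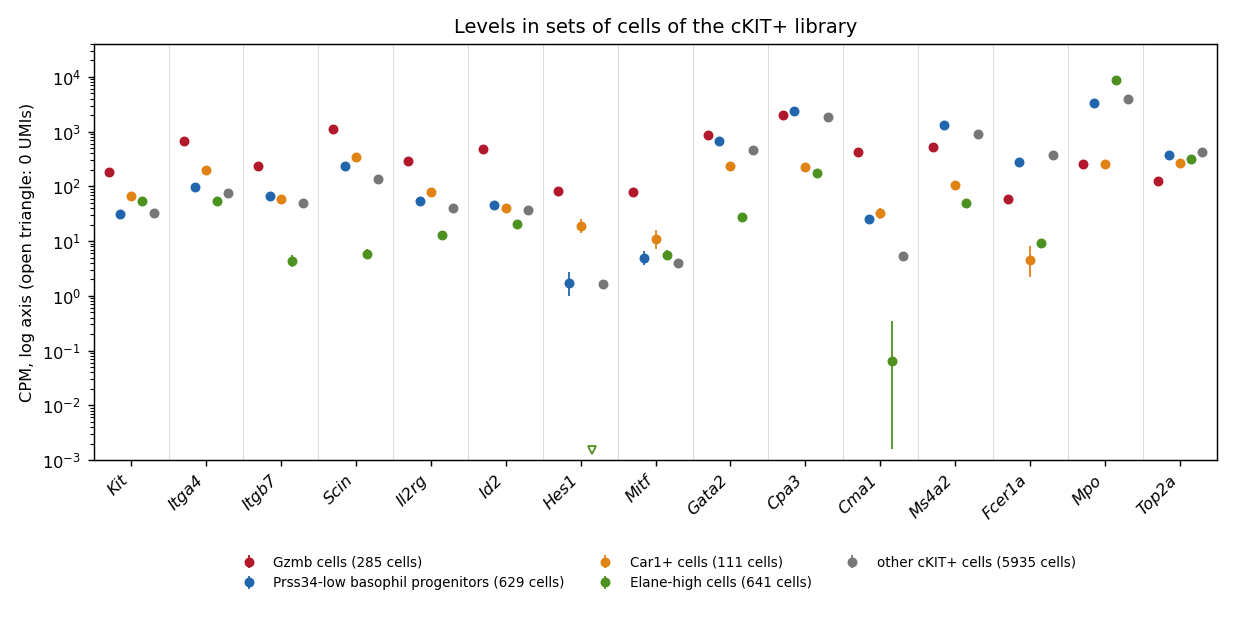
Levels of 15 genes in Gzmb cells and 4 other sets of cells of the cKIT+ library, in CPM on a log axis, with exact 95% Poisson intervals that cover counting error only and an open triangle where a set held 0 UMIs. Kit, Itga4, Itgb7, Scin, Il2rg, Id2, Hes1, Mitf and Cma1 stood highest in the Gzmb cells, whereas Cpa3 was alike in Gzmb cells and basophil progenitors. Ms4a2, Fcer1a and Top2a were lower in Gzmb cells than in basophil progenitors, which lie on the other side of the Mcpt8 limit.

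Genes of the mast cell surface and its regulators divided. Of 10 measured, 5 were at least 2-fold higher in Gzmb cells (Kit, Itga4, Itgb7, Mitf and Il1rl1) and 1 was lower (Fcer1a), with a median log2 ratio of 1.19. Itga4 reached 665 CPM against 75.9 in other cells, 8.76-fold (8.31 to 9.23), and its partner chain Itgb7 reached 233 against 50, 4.66-fold. Both chains of the tissue-homing integrin were thus higher in the same set of cells, and whether they met in single cells was not tested. Mitf was 19.7-fold higher (16.5 to 23.4), at 78 against 3.96 CPM, and Il1rl1, the receptor for IL-33, was 2.79-fold higher. Fcer1a, the IgE-binding α chain, went the other way, at 59 against 377 CPM, 6.39-fold lower (5.46 to 7.51). The Mcpt8 limit removed basophils from the Gzmb cells and not from the other set, so this lower level follows in part from the rule. The β chain Ms4a2 was at 521 against 896 CPM and the shared γ chain Fcer1g at 1190 against 842, both within the 2-fold limit, so the 3 chains of the receptor did not move together. Downstream of the receptor, the phosphatase Inpp5d (2.54-fold) and the adaptor Lat2 (2.9-fold) were also past 2-fold among 9 measured genes of IgE receptor signalling, and Plcg1, a phospholipase at 49.7 CPM with all cells and thus just under the minimum, joined them when the 8 cells rich in another lineage were left out.

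Mast cell granule genes were mostly below the minimum level. Of 16 genes listed, 10 fell short of 50 CPM in both sets, and of the 6 measured Cma1 (chymase) and Slc18a2 (the vesicular monoamine transporter, which loads histamine) were higher and Hdc (the enzyme that makes histamine) was lower. Cpa3, a carboxypeptidase of mast cell granules, was at 2003 CPM against 1882 in other cells and 2370 in basophil progenitors, and was seen with 0 to 142 UMIs per cell. Cpa3 therefore did not separate Gzmb cells from the basophil progenitors. Srgn, the proteoglycan core that holds granule proteases, stood at 2573 against 2629 CPM. Slc18a2 stood at 122 against 53.4 CPM, while Hdc stood at 106 against 235. Transcripts of mature mast cells were nearly missing, since the tryptases Tpsb2, Tpsab1 and Tpsg1, the proteases Mcpt1 and Mcpt9 and the receptor Mrgprb1 were at 0 UMIs among 2677897, and Mcpt4, Tph1 and Mrgprb2 had 1 UMI each.

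Of the mast cell granule genes above the minimum level, Cma1 had the largest ratio. It stood at 427 CPM (402 to 452) in Gzmb cells, 5.32 in other cKIT+ cells, 25.8 in basophil progenitors, 32 in Car1+ cells and 0.0631 in Elane-high cells, which made it 80.3-fold (72.2 to 89.4) higher than in the other cells and 16.6-fold (14.4 to 19.1) higher than in basophil progenitors. The ratio to other cells was 22.6 when Mcpt8 was held under 0.1% of UMIs, and 992 of the 1143 Cma1 UMIs lay in 21 cells with at least 10 each. It was seen in 84 of the 285 cells (29.5%), with at most 152 UMIs in a cell, and in 15.8% (11.8 to 20.6) after thinning to 2000 UMIs. In Elane-high cells these shares were 0.156% and 0%. Of all 1634 Cma1 UMIs of the library, 70.0% lay in the Gzmb cells, which also held 13.9% of its 3558 Kit UMIs.

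Cma1 and Gzmb are the outermost of 15 protease genes in the locus on chromosome 14. Most genes between them were at or near 0 UMIs. Their promoters are shown because Gzmb chose the cells and Cma1 had the largest ratio of the mast cell granule genes above the minimum level. Of the 285 cells, 201 held 0 Cma1 UMIs. In the GRCm38 build the locus runs from 55941451 to 56262260, with Cma1 at 55941451 to 55944675 and Gzmb at 56258838 to 56262260, both on the minus strand. The 250 bases before each RefSeq gene start (GRCm38.p6, minus strand, 5′ to 3′) are printed with capitals marking TGTGGT, the core letters bound by RUNX factors, in Gzmb, and TTATC, the reverse of the GATA factor letters GATAA, in Cma1.
Gzmb, chr14:56262335-56262584: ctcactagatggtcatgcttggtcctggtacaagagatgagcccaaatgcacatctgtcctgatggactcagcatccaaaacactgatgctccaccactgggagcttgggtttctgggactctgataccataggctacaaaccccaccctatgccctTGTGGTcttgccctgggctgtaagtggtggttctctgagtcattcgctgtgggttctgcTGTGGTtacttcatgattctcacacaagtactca
Cma1, chr14:55944676-55944925: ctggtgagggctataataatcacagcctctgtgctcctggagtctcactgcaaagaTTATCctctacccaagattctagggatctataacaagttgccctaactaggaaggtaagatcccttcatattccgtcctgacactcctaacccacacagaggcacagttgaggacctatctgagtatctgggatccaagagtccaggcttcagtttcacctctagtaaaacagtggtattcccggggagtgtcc
Gzmb held TGTGGT at 2 places and Cma1 held GATAA, read on the other strand, at 1. The promoter of Mcpt8, a gene of the same locus that the rule held low, also had TGTGGT at 2 places, and that of Kit had 0 matches to the 3 motifs searched. Searched on both strands, TGTGGT (or ACCACA) occurs in 14% of 32851 promoters of this length and GATAA (or TTATC) in 22.6%. The letters CATGTG (or CACATG), 1 form of the site of MITF, occur in 12.3% of all and at 0 places in either of these. A match is a description of letters, not of binding.

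Between the outermost genes the locus was largely empty in Gzmb cells. Mcpt1, Mcpt9 and the granzymes Gzme, Gzmd, Gzmg and Gzmn had 0 UMIs, Gzmf had 1, Mcpt2 had 3 and Gzmc had 4. Cma2, the second chymase gene and next to Cma1, had 11 UMIs in 10 cells against 2 in the 5935 other cKIT+ cells, a ratio of 190 with a counting interval of 41.4 to 1760. Ctsg (cathepsin G), which neutrophil progenitors make, stood at 314 CPM in Gzmb cells against 3740 in other cells, 11.9-fold lower. Prf1 (perforin, through which granzymes enter target cells) had 23 UMIs in 22 cells, or 8.59 CPM against 0.39 in other cells, while Ctsc, the peptidase that activates granzymes and chymases, was 2.79-fold higher, at 155 against 55.4 CPM. Ctsc was the only one of 6 measured granzyme partners past 2-fold.

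**Figure D2:**
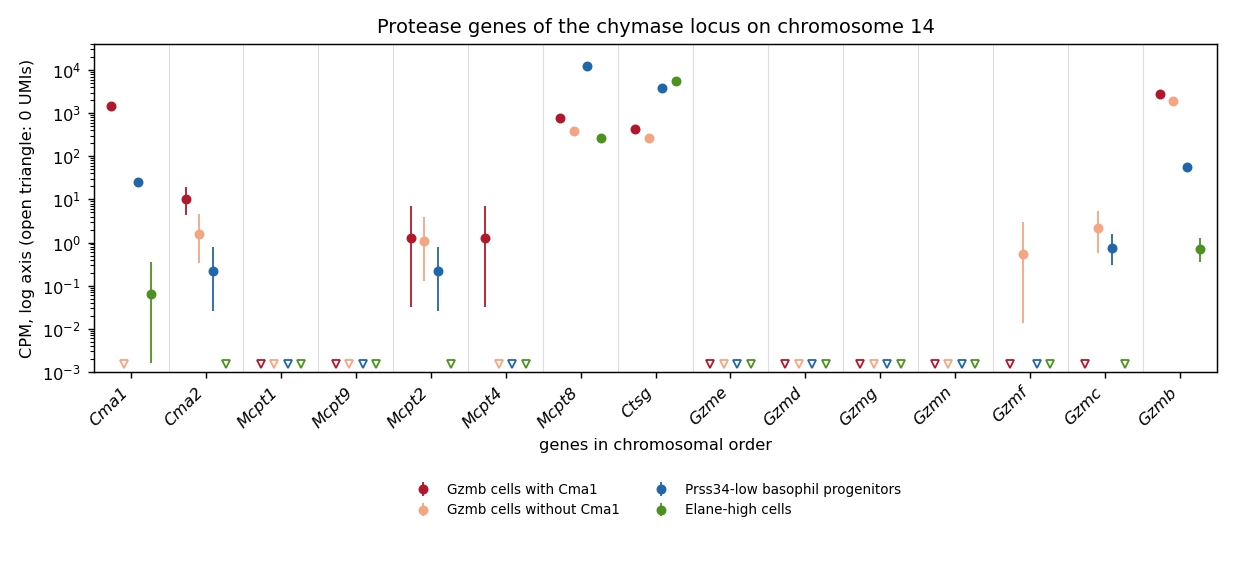
Levels of the 15 protease genes of the chromosome 14 locus in chromosomal order, in CPM on a log axis with exact 95% Poisson intervals for counting error, in Gzmb cells with and without a Cma1 UMI, Prss34-low basophil progenitors and Elane-high cells. Open triangles stand for 0 UMIs, and the places of Gzmb, Mcpt8 and Cma1 were set by the choice of cells. Among the other genes, Ctsg was at 314 CPM over all Gzmb cells and Cma2 at 11 UMIs, and the rest had 4 UMIs or fewer.

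Transcription factors differed in both directions. Of 23 measured, 8 were at least 2-fold higher in Gzmb cells and 7 at least 2-fold lower, with a median log2 ratio of 0.82. Hes1 stood at 82.5 CPM against 1.68, 49.2-fold (39.9 to 60.8), Id2 at 489 against 37.1, 13.2-fold (12.3 to 14), and Meis1, a homeobox factor of stem cells, at 115 against 12.2, 9.4-fold. Tal1 was 3.43-fold, Lmo4 2.96-fold, Ikzf1 2.81-fold and Tcf4 2.26-fold higher. Gata2 was seen with a median of 8 UMIs per cell and stood at 872 against 470 CPM, 1.85-fold, below the limit, and Gata1 was alike at 34 and 31.6. Lower in Gzmb cells were the myeloid factors Cebpa (34 against 223 CPM, 6.56-fold), Cebpb (6.28-fold), Cebpd, Cebpe and Spi1 (93.4 against 203), with Lmo2 and Id1 (7.32-fold). Cebpe stood at 41.8 CPM with all cells and at 8.68 without the cells rich in another lineage. Of the Notch pathway, 11 of 14 genes were below the minimum, and of the 3 measured Hes1 and the receptor Notch2 (53 against 26.1) were past 2-fold.

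Surface receptors for cytokines were among the higher genes in Gzmb cells. Of 9 measured, 4 were at least 2-fold higher and 0 lower, with a median log2 ratio of 0.81. Il2rg, the common γ chain of the receptors for IL-2 and its relatives, stood at 288 against 39.5 CPM, 7.29-fold, and Tgfbr2, a TGF-β receptor chain, at 65.3 against 26.6, while Kit and Il1rl1 are given above. Csf2rb (217 and 182 CPM) and Il3ra (68.3 and 112), chains of the receptors for IL-3, lay within the limit. Of 13 integrin and adhesion genes, Cd44 (2.05-fold) and Selplg (2.17-fold) joined Itga4 and Itgb7, and Itga2b, a megakaryocyte and progenitor chain, was lower at 62 against 135 CPM. The E-cadherin transcript Cdh1, whose protein was the other marker of the sort, was seen in 91 Gzmb cells and stood at 46.3 CPM against 61 in other cells and 77.1 in basophil progenitors. Of 6 stem and early progenitor genes, Cd34 (196 against 86.1 CPM), Meis1 and Sox4 (720 against 165) were higher and 0 were lower. Of 9 actin regulators, Scin was higher at 1123 against 135 CPM, 8.32-fold (8 to 8.66), and Svil, supervillin, at 55.3 against 25.6.

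**Figure D3:**
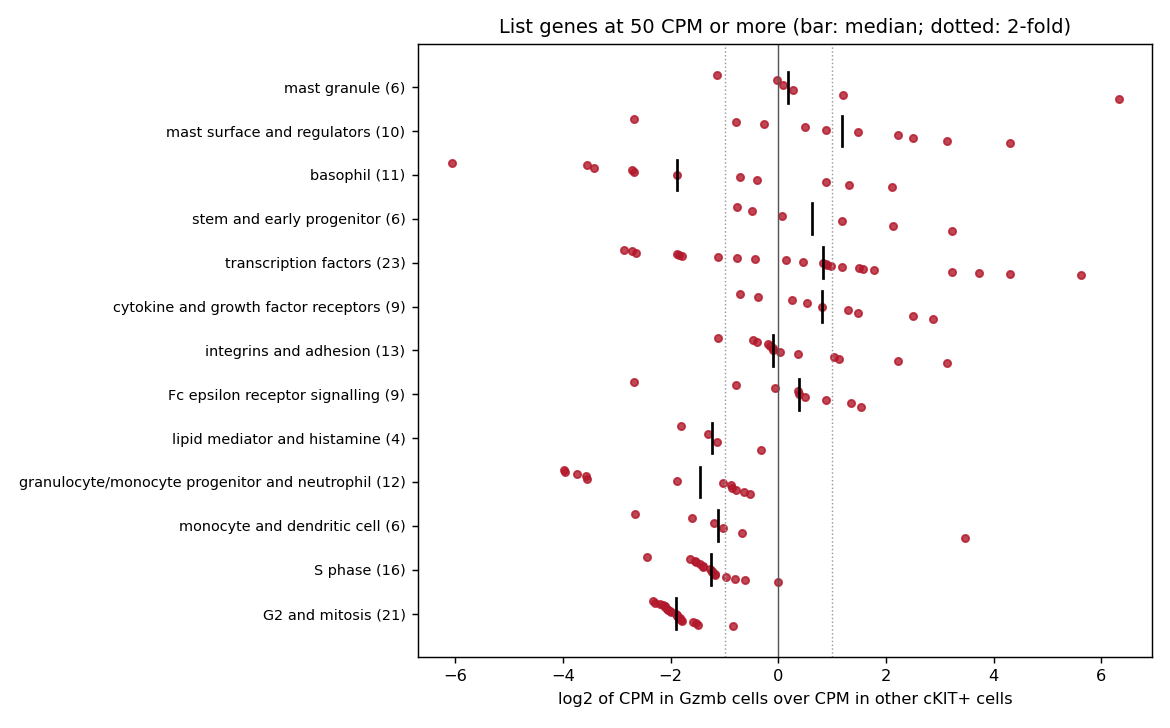
Log2 ratio of the level in Gzmb cells over other cKIT+ cells for each measured gene of 13 gene lists, with a bar at each list's median and dotted lines at 2-fold. The points of the mast cell surface list have their median at 1.19 and those of G2 and mitosis at -1.91, against 0.06 over all 3279 genes.

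The genes with the largest ratios were mostly low outside the Gzmb cells. Beside Cma1, Hes1, Mitf, Id2 and Cx3cr1 they were Atp8b5 (a phospholipid flippase, 118 against 2.1 CPM, 56-fold), Kcnc1 (a potassium channel, 25.5-fold), Cd7 (an immunoglobulin-family receptor of lymphoid cells, 159 against 7.08, 22.5-fold), Basp1 (21.5-fold), Ahr (the aryl hydrocarbon receptor, 21.2-fold) and the predicted genes Gm973 (12.1-fold) and Gm20186 (12-fold). The ratio of Cd7 was 9.49 with every cell scaled to the same total and 34.9 among cells with at least 5000 UMIs. Cx3cr1, the fractalkine receptor, stood at 138 against 12.5 CPM and was the only 1 of 6 monocyte and dendritic cell genes that was higher, while 4 were lower. Pdgfrb, a receptor of stromal cells that was not on any list, stood at 79.2 against 8.29 CPM.

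At the other end were genes of other lineages. The limits on Car1, Cd79a, Prg2 and Mcpt8 removed cells of those lineages from the Gzmb cells and not from the other set, so low erythroid, B cell, eosinophil and basophil genes follow in part from the rule and are given as a description. The globins Hbb-bs (9.71 against 1098 CPM, 113-fold, or 48.0-fold among cells with at least 5000 UMIs), Hba-a1 and Hbb-bt, the immunoglobulin chain Igkc (1.87 against 429), the eosinophil protein Prg3, and the basophil protease Prss34 (165 against 11087, 67.2-fold) were lowest, followed by Serpine2, Chst13, Retnlg, Igfbp7, Arsb and Elane (148 against 2358, 15.9-fold). Of the 32 Retnlg UMIs in Gzmb cells, 29 lay in 1 cell, and Elane was at 24.5 CPM without the cells rich in another lineage. The ratio of Serpine2 was 0.0418 with all cells and 0.0276 without those cells. Of 11 basophil genes, 6 were lower (Prss34, Ms4a3, Fcer1a, Cebpa, Ccl6 and Ccl3) and 2 higher, the membrane protein Ifitm1 (3144 against 1260 CPM) and the chemokine receptor Ccr2 (56.4 against 13.1). Ms4a3, a marker of granulocyte-monocyte progenitors and basophils, was 11.7-fold lower. Mpo (myeloperoxidase) stood at 255 against 3963 CPM, 15.6-fold lower. With all cells, 7 of 12 measured neutrophil lineage genes were past 2-fold in that direction with 0 higher.

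Markers of other lineages were summed in the same cells. Neutrophil lineage markers summed to 14552 CPM in all Gzmb cells and to 910 without the 8 cells rich in another lineage, of which Ctsg made 315, with Csf3r at 0, against 36770 in other cells. Natural killer and T cell markers summed to 804 CPM (859 in other cells), of which Nkg7, a granule membrane protein that basophils also express, made 777, and 8 of the 14 (Gzma, Klrb1c, Ncr1, Klrd1, Il2rb, Cd8a, Eomes and Tbx21) were at 0 UMIs. For innate lymphoid cells the sum was 561 against 75.2 CPM, of which Id2 made 489, whereas Tcf7, Thy1, Il2ra and Pdcd1 were at 0, Il7r at 4 UMIs and Gata3 at 7. Granzyme B is best known from cytotoxic lymphocytes, and of their genes those 8 were at 0 whereas Nkg7 and Prf1, at 8.59 CPM, were present. B cell markers summed to 29.5 CPM (Cd79b 19, with Ms4a1 at 0), erythroid markers to 128 against 1866 (Car2 45.2, Ermap and Aqp1 at 0), megakaryocyte markers to 67.2 against 171 (Ppbp at 0), eosinophil markers to 20.2 against 223 and macrophage markers to 40.7 against 113 (Adgre1 at 0). The part of these transcripts in the results was not tested.

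Genes of cell division were lower in Gzmb cells as a group. Of 16 measured S phase genes, 12 were at least 2-fold lower and 0 higher (median log2 ratio -1.26), and of 21 genes of G2 and mitosis, 20 were lower and 0 higher (median -1.91). Top2a, the topoisomerase that untangles replicated DNA, stood at 125 against 433 CPM and the proliferation marker Mki67 at 61.6 against 255. Among cells thinned to 2000 UMIs, 19.3% (14.9 to 24.4) of Gzmb cells held at least 3 UMIs of the G2 and mitosis list, against 66.2% of other cKIT+ cells, 56.4% of basophil progenitors and 73.5% of Elane-high cells. For the S phase list the shares were 17.5% (13.3 to 22.5), 54.8%, 52.5% and 69.6%. Of the 111 Car1+ cells, 50 reached this for G2 and mitosis and 46 (41.4%) for S phase, and S100a8-high cells were at 80.4% and 37.8%. On both lists the Gzmb cells had the lowest share of these sets at the same depth.

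Set directly against the Prss34-low basophil progenitors, 221 of 3234 genes (6.83%) were at least 2-fold higher in Gzmb cells and 177 (5.47%) lower. Without the 8 cells rich in another lineage these counts were 234 (7.2%) and 199 (6.12%) of 3252. With all cells Cd74 had the largest ratio (60.5-fold), but 308 of its 329 UMIs lay in 1 of those 8 cells. S100a8, S100a9, Camp, Ngp and Ltf, higher with all cells, were no longer higher without the 8, as their choice fixes. Hes1 (48.2-fold), Cd7 (21.6-fold), Ccr2 (20.3-fold), Ahnak (16.9-fold), Cma1 and Mitf (15.9-fold) were again far higher. Mpo (255 against 3278 CPM), Prss34 (165 against 1894) and Cebpa (34 against 288) were lower, as were Fcer1a (59 against 275) and Ms4a2 (521 against 1305). These sets lie on opposite sides of the Mcpt8 limit, so lower basophil genes follow in part from the choice of cells. Of the 10 mast cell surface genes Kit, Itga4, Itgb7 and Mitf were higher and Fcer1a and Ms4a2 lower, of 6 mast cell granule genes Cma1 was higher and Hdc lower, and of 19 genes of G2 and mitosis 18 were lower.

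Below the limit of the rule, Gzmb cells were binned by their own Mcpt8 level. Elane-high cells, themselves chosen with under 0.5% Mcpt8, held 264 CPM of it, above the edge of the lowest bin. The lowest bin is thus not above the level of cells of another lineage. The part of free RNA in the lower bins was not tested. From the 162 cells with under 0.02% Mcpt8 to the 90 with 0.02 to 0.1% and the 33 with 0.1 to 0.5%, Cma1 went from 89.8 to 543 and 1375 CPM. Without the cells rich in another lineage these levels were 91.9, 498 and 1363. Cpa3 went from 1362 to 2314 and 3627 CPM and Ms4a2 from 373 to 551 and 978, while Sox4, a factor of early progenitors, went from 864 to 698 and 255 and Scin from 1243 to 1063 and 826. Kit was alike in the 3 bins, at 178, 183 and 211 CPM. Fcer1a went from 25.8 to 74.3 and 145 CPM in the same order. Prss34 was at 102, 75.5 and 569 CPM, with 82 of the 232 UMIs of the last bin in 1 cell. Genes thus ran in different directions over the 3 bins.

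**Figure D4:**
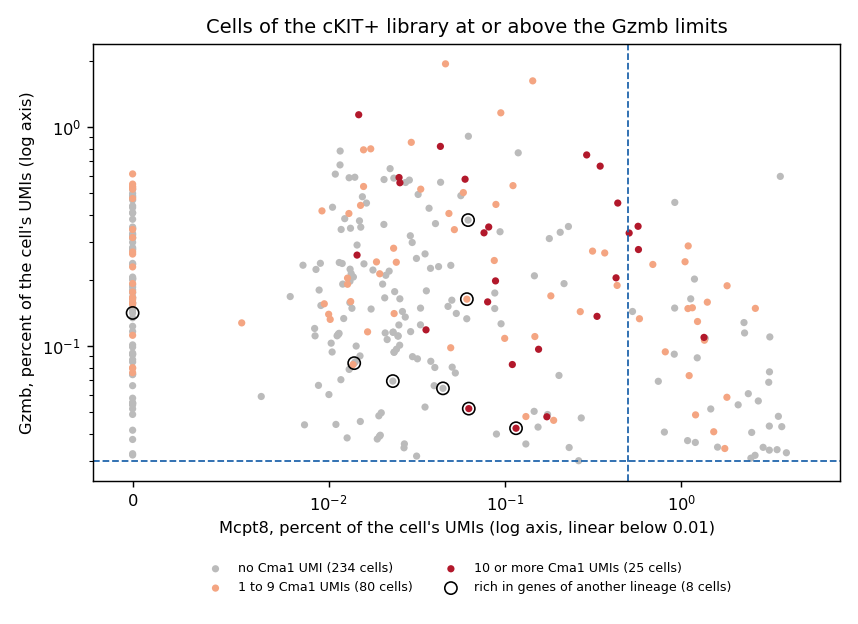
Share of UMIs from Gzmb (vertical) against share from Mcpt8 (horizontal) in 339 cKIT+ cells at or above both Gzmb limits, which are the 285 Gzmb cells and the 54 left out by Mcpt8 alone, coloured by Cma1 UMIs, with dashed lines at 0.5% Mcpt8 and 0.03% Gzmb and circles around the 8 cells rich in another lineage. Cells with at least 10 Cma1 UMIs (25 cells) lie on both sides of the Mcpt8 limit, and 234 cells hold 0 Cma1 UMIs.

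Inside the group, the 84 cells with a Cma1 UMI were compared with the 201 without one. The median depths were 7921.5 and 8482 UMIs, so the cells with Cma1 were not the deeper ones. Over 3219 genes, 56 (1.74%) were at least 2-fold higher with Cma1 and 8 (0.249%) lower. The 8 highest were Socs2, Elane, Fcnb, Prtn3, Ly6c2, Ccl4, Wfdc21 and Cebpe and 7 of the 8 lowest were Cd74, H2-Ab1, Treml2, Tbc1d4, Tmem176b, Dhx30 and Tet1. Elane, Fcnb, Prtn3, Ly6c2, Wfdc21, Cd74 and H2-Ab1 were no longer past 2-fold once the cells rich in another lineage, 3 of which held Cma1, were left out. Prtn3 and Wfdc21 were then lower with Cma1 (0.819-fold and 0.829-fold), and Fcnb had 0 UMIs in the cells with Cma1. Elane stood at 444 CPM with Cma1 and 22.9 without, but 325 of the 397 Elane UMIs lay in 1 cell, and without those 8 cells it stood at 30.3 and 22.1. Cd74 was at 5.01 against 173 CPM with all cells and at 5.5 against 5.53 without them. Tmem176b (0.467-fold with all cells, 0.511 without those 8) and Tet1 (0.492 and 0.538) moved little but crossed the limit, whereas Socs2, Ccl4, Treml2, Tbc1d4 and Dhx30 stayed past it. Of the 112 Cebpe UMIs only 22 were left, 18 with Cma1 and 4 without, which is below the minimum level. The comparison below leaves those 8 cells out.

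Among the remaining 81 cells with Cma1 and 196 without, 35 of 3195 genes (1.1%) were at least 2-fold higher with Cma1 and 3 (0.0939%) lower. Cpa3 was 2.29-fold higher (2.17 to 2.42), Cyp11a1, the enzyme that starts steroid synthesis, was at 487 against 157 CPM, 3.1-fold (2.64 to 3.64), and Atp8b5 at 241 against 69.7, 3.45-fold. Rab27b, a GTPase of granule exocytosis, stood at 111 against 32.1 CPM, Ndst2, which sulfates the heparin of mast cell granules, at 86.7 against 37.6, and Prkcb at 79.8 against 23.8. Cpa3 and Ndst2 were the 2 genes past 2-fold of 5 measured on the mast cell granule list. Socs2, a feedback inhibitor induced by STAT5, had 38 UMIs in 19 cells with Cma1 and 5 in 4 cells without, 18.9-fold (7.43 to 61.5). With all cells its ratio was 20.3, against 12.5 among cells with at least 5000 UMIs and 42.0 with every cell scaled to the same total. Ccl4 was 5.6-fold higher, but 24 of its 54 UMIs lay in 1 cell. The 3 lower genes were Treml2 (26.1 against 72.5 CPM), Tbc1d4 (2.33-fold) and Dhx30 (2.1-fold). With all cells, Dhx30 was no longer past 2-fold without the highest doublet scores (0.53-fold) or with every cell scaled to the same total (0.512-fold).

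The label genes differed little between these cells. Kit was 1.43-fold (1.18 to 1.73) higher with Cma1, Mitf 1.64-fold, Itga4 1.41-fold, Id2 1.52-fold and Il1rl1 1.61-fold, and 0 of 10 mast cell surface genes passed 2-fold in the comparison of all cells. Scin (0.954-fold, 0.879 to 1.03) and Hes1 (1.26-fold, 0.938 to 1.68) had intervals that include equality. Sox4 was lower with Cma1, at 537 against 832 CPM, 1.55-fold (1.39 to 1.74), and Ifitm1 was 1.65-fold lower. Of 12 measured genes of G2 and mitosis, 9 were past 2-fold higher with Cma1, with a median log2 ratio of 1.24. These came from few cells, since Cdk1 was seen in 9 cells with Cma1 and in 9 without. In thinned cells, 25.9% with Cma1 and 14.3% without held at least 3 UMIs of this list, and with all cells the shares were 27.4% (18.2 to 38.2) and 15.9%, with overlapping intervals.

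Genes graded by the number of Cma1 UMIs followed several orders. Cpa3 stood at 1469 CPM in the 196 cells with 0 Cma1 UMIs, 2365 in 44 cells with 1 to 2, 2916 in 18 cells with 3 to 9 and 7348 in 19 cells with 10 or more. Cyp11a1 followed the same order at 157, 356, 376 and 1080 CPM, and Socs2 at 2.77, 26.1, 33.6 and 166. Kit was alike in the lower 3 bins (167, 197 and 191 CPM) and stood at 449 in the highest, with a lower bound of 340, and Il1rl1 was at 91.3, 116, 129 and 276. Gata2 went from 835 to 1585 CPM. Ifitm1 ran the opposite way, from 3733 CPM to 2694, 1789 and 1459, and Sox4 from 832 to 323. Top2a was at 79.1, 138, 437 and 7.88 CPM and Mki67 at 38.7, 61.7, 163 and 15.8. These levels rest on few cells, since Top2a was seen in 6 of the 18 cells with 3 to 9 Cma1 UMIs and in 1 of the 19 with 10 or more.

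**Figure D5:**
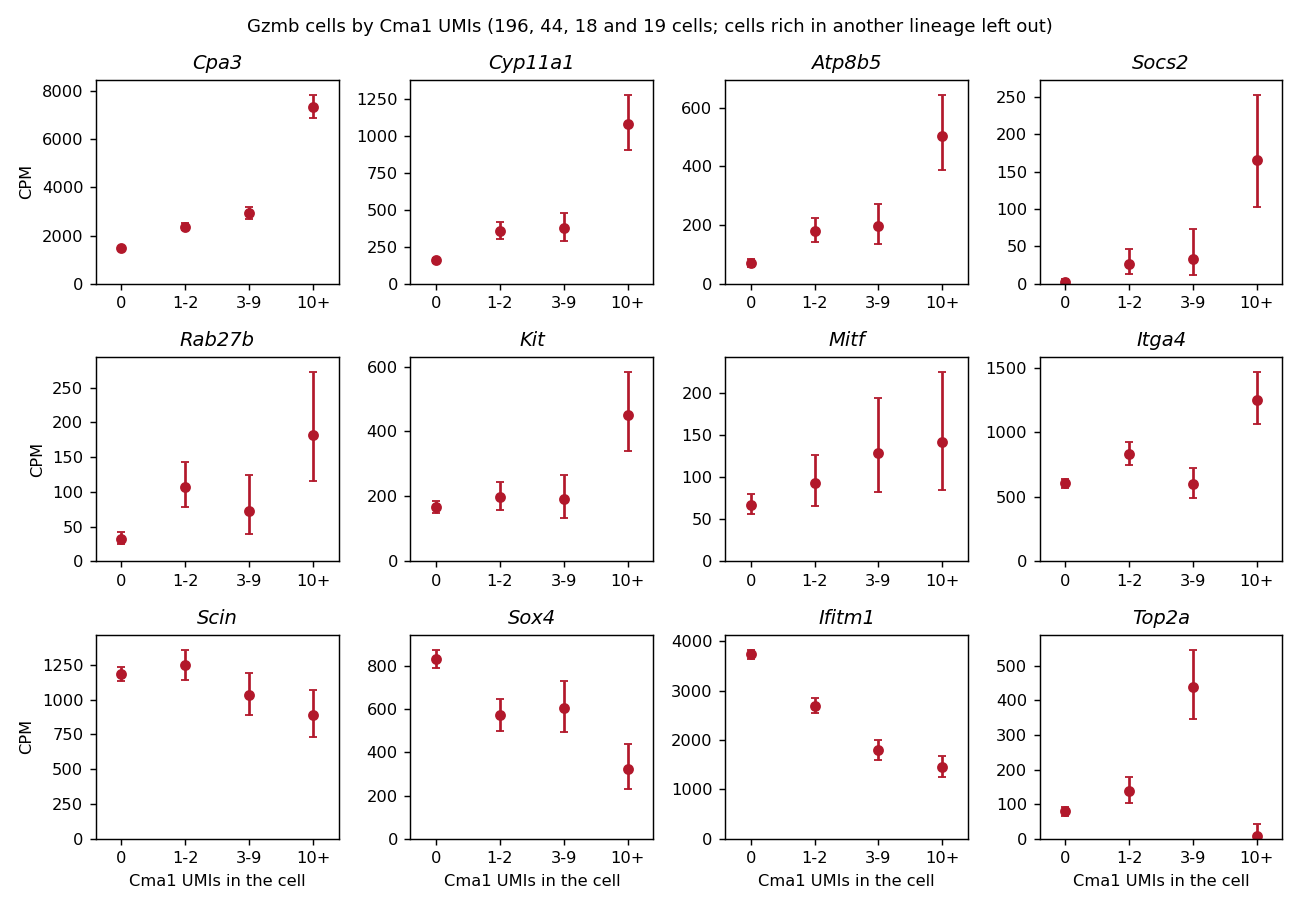
Levels of 12 genes in Gzmb cells binned by Cma1 UMIs (0, 1 to 2, 3 to 9 and 10 or more, in 196, 44, 18 and 19 cells), in CPM on linear axes that start at 0, with exact 95% Poisson intervals for counting error and the cells rich in another lineage left out. Cpa3, Cyp11a1 and Socs2 are highest in the last bin, Ifitm1 and Sox4 are lowest there, and Top2a peaks at 437 in the bin of 3 to 9.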

How the data were processed

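Per the labels, cells were sorted from mouse bone marrow and made into single-cell 3′ libraries (the labels name 10x chemistry v2, the study's text v3), 1 for the cKIT+ and 1 for the cKIT- sort. The authors made the deposited matrices of raw UMI counts per gene and cell with Cell Ranger 3.0.2 on mm10 (submitters' processing notes); the annotation release is not given in the sources used here. The matrices held 6632 and 3745 cells. Their identifier files name genes and barcodes as deposited, and 30934 of 31053 gene identifiers matched GENCODE mouse release M21, used for coordinates. Total UMIs were 95477153 and 24033994.

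From the counts, UMIs were summed over each set of cells and scaled to CPM. Sums carry exact Poisson intervals, ratios exact binomial ones and shares exact Clopper-Pearson ones (SciPy 1.17.1, Python 3.11.15, NumPy 2.4.6, pandas 2.3.3). The limit that a share of 0 cells allows is instead 3 divided by the number of cells, an approximate upper bound. UMIs of cells from 1 library are no replicates, so no test was run. Genes with at least 50 CPM in 1 of both sets were compared, and a ratio of 2 or more counted as higher or lower. A UMI count of 0 was given a floor of 3 counts. Thinning drew 2000 UMIs per cell without replacement, with a fixed seed. Doublets were scored with Scrublet (Scanpy 1.11.5) and kept, and plots used Matplotlib 3.10.9. The calculations were tested on simulated data. The members and gene lists were chosen with earlier results of these data known. Named genes were those of the lists, the 12 with the largest ratios in each direction against other cKIT+ cells and the 8 in each direction in the Cma1 comparison, leaving out the genes of the rule, with Pdgfrb, Prkcb, Ahnak, Cyp11a1 and Rab27b named after their values were seen. Cells rich in another lineage (S100a8 at least 1%, or Elane or Cd74 at least 0.5% of UMIs) were defined after the data were seen. Promoter sequences are from RefSeq (GRCm38.p6), where Gzmb and Cma1 matched by symbol. Some genes of the lists and of the naming rule are not reported here.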

Additional observations from a re-analysis of the deposited data

Results flagged for a closer look

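Gzmb and Cma1 transcripts also appeared in the cKIT- library, which the comparisons above do not use because 0 of its cells met the rule. It held 285 Gzmb UMIs in 163 cells, of which 157 lay above the Mcpt8 limit, and at most 17 UMIs fell in 1 cell. It held 45 Cma1 UMIs in 37 cells, 36 of them above the Mcpt8 limit. The library held 21 Kit UMIs among 24033994 in all. The part of free RNA in these counts was not tested.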

How the results depend on the processing

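Under 14 alternatives, 57 of 79 recomputed values stayed within their counting interval or within 1.5 times the count, and 22 moved. Only the ratio of Kit could change direction among these values, and it did not. The ratio of Kit (5.63-fold) was 6.47 with Gzmb at least 0.1% of UMIs and 6.64 with every cell scaled to the same total, and the cause was not tested. The share of Gzmb cells with Cma1 was 15.8% after thinning, which removes UMIs by construction. Counts of genes followed the minimum level that admits them. Higher in Gzmb cells were 865 genes at a minimum of 10 CPM and 52 at 200, and lower were 596 and 68. With Cma1, 306 and 16 were higher and 197 and 0 lower at these minimums. In the Cma1 comparison 129 were higher and 47 lower with at least 3 Cma1 UMIs, 381 and 276 after thinning (fewer UMIs per gene), 35 and 3 without the cells rich in another lineage, and 35 and 5 with no limit on Car1. With Gzmb at least 0.1%, 32 were higher, with Mcpt8 under 0.1%, 34, and with at least 5 Gzmb UMIs, 4 were lower, and the cause was not tested. All 24 genes named against other cKIT+ cells stayed past 2-fold under the 5 alternatives tried for them, but 15 of the 24 ratios moved by over 1.5 times under 1 alternative or more. Such moves numbered 7 with Mcpt8 under 0.1% (Cma1 22.6-fold higher, Igfbp7 171-fold and Chst13 118-fold lower), 5 among cells with at least 5000 UMIs (Hbb-bs 48.0-fold lower, Cd7 34.9-fold higher), 12 with every cell scaled to the same total (Hbb-bs 316-fold lower, Hes1 32.7-fold and Cd7 9.49-fold higher), 2 without the highest doublet scores and 3 without the cells rich in another lineage (Retnlg 516-fold and Elane 96.4-fold lower). Among the genes named in the Cma1 comparison, Dhx30 was no longer past 2-fold under 2 of the alternatives. Leaving out cells rich in another lineage or lifting the Car1 limit was chosen after the data were seen. No paired analysis was possible because each sort gave 1 library, so no replicate could be left out. Detection of low genes is limited by the median depth of 8312 UMIs per cell.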

Other observations

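Gzmb was also carried by cells that the rule left out because of Car1. Of the 111 Car1+ cells, 43 passed both Gzmb limits (median depth 9317 UMIs), 56 had no Gzmb UMI (median 27019.5) and 12 lay between. Those with Gzmb had 158 CPM of Kit against 44.3 in those without, 1317 of Scin against 80.3, 555 of Itga4 against 102, 78.9 of Hes1 against 4.43, 192 of Id2 against 5.54 and 320 of Il2rg against 17.7. Cma1 was at 169 CPM, from 13 of the 43 cells, with 40 of its 75 UMIs in 1 cell. Erythroid genes ran the other way, with Car2 (carbonic anhydrase 2) at 49.6 against 1952 CPM and Klf1, an erythroid transcription factor, at 54.1 against 275, and with Epor, the erythropoietin receptor, at 4.51 against 55.9. Elane was at 1676 CPM in those with Gzmb and 220 in those without, but 734 of 743 Elane UMIs and 373 of 397 lay in 1 cell of each.

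Above the Mcpt8 limit, 54 cells failed the rule by Mcpt8 alone. Their levels, from the 12 cells with 0.5 to 1% Mcpt8 to the 22 with 1 to 2% and the 20 with 2% or more, were 1246, 119 and 3.26 CPM for Cma1, 196, 96.3 and 22.8 for Kit, 392, 317 and 75 for Itga4, and 490, 538 and 277 for Scin. Fcer1a was at 133, 221 and 792 CPM, Prss34 at 5118 (724 of 731 UMIs in 1 cell), 10122 and 23793, and Cdh1 at 63, 130 and 143. The first of these bins held Cma1 in 6 of 12 cells, and the last held 1 Cma1 UMI in 20 cells. Of the 55 cells past both Gzmb limits but over the Mcpt8 limit, 19 were within the highest doublet scores, and their part in these levels was not tested.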
